A study of Homo sapiens with 9 samples.

Results

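The genes described here are 31 regulators and targets of the transcription factor p53, picked by gene symbol from a table of 27407 features. All 31 have a row in that table, and all 31 were among the 18767 features with enough counts to be tested. RNA was sequenced from Weri-RB1/CRP, which the labels give as a line of retinoblastoma resistant to carboplatin, a platinum drug that damages DNA. All 3 groups are this line carrying a short hairpin RNA, with 3 libraries each. The hairpin shNC is the control, and shSNHG1#1 and shSNHG1#2 were designed to lower SNHG1, a long noncoding RNA. Cells of all groups grew in RPMI medium with serum, and the labels give no clone, no drug exposure and no time after delivery of the hairpins. Nothing in the labels says that the libraries of a group are separate cultures. The p-values therefore speak of the spread among libraries, and that spread may be technical. SNHG1 itself was not analysed here, so the groups follow the labels alone.

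p53 is held at a low level in unstressed cells by MDM2, which marks it for destruction, and by MDM4, which blocks its activity. When DNA is damaged, kinases free p53 from both, and it then switches on genes that stop the cell cycle, repair DNA, adjust metabolism or lead to cell death. MDM2 is itself a p53 target, which closes a feedback loop. Many of these genes are also driven by other factors, such as FOXO proteins and the stress factors ATF4 and CHOP, and a change in them is not specific to p53.

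Sequences near the start sites of these genes were examined for the p53 response element. Its unit is a decamer made of purines, a C, a pair of A or T bases, a G and pyrimidines, and a full element has 2 decamers with a spacer of 0 to 13 bases. The decamer reads the same on both strands, so 1 search covers both, and decamers could overlap each other. RefSeq promoters (assembly GRCh38.p14, 250 bases before to 50 after a start, 300 in all) were found for 26 of the 31 genes. A decamer with no mismatch was present for 7 of these 26 genes (26.9%), against 8.06% of 27305 genes with a promoter in the same table. Genes with several starts have more windows, and over single windows the shares were 17.9% of 39 and 6.63% of 35116. Parts of the windows, none reaching past the start, are printed below because they show a single decamer in genes whose levels follow. Capitals mark the decamer. FAS, FDXR and SESN1 also had windows at other start sites, and those held no decamer without a mismatch. A full element with no mismatch was present for 0 of the 26 genes. No match says only that these letters are not in this window.
AEN, chr15:88621286-88621335, plus strand: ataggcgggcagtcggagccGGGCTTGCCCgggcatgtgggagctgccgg
EI24, chr11:125569447-125569476, plus strand: ccagcggccccgtgcggcccGGGCATGCCC
FAS, chr10:88991289-88991338, plus strand: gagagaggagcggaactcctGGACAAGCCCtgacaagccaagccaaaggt
FDXR, chr17:74872995-74873025, minus strand: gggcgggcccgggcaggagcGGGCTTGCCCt
PLK2, chr5:58460189-58460238, minus strand: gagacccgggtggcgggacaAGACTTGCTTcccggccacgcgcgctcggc
RPS27L, chr15:63157507-63157556, minus strand: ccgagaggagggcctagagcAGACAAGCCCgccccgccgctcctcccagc
SESN1, chr6:109009008-109009057, minus strand: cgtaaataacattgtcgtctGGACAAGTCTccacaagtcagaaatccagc

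With up to 1 mismatch in each decamer, outside its C and G, MDM2 was the only one of the 26 genes with a full element in these windows, which 2.28% of all genes had. The element lies in the windows of 2 inner start sites of MDM2 and has a spacer of 0 bases. Its decamers begin 94 and 84 bases before the more upstream of these inner starts, and each has 1 mismatch.
MDM2, chr12:68808883-68808982, plus strand: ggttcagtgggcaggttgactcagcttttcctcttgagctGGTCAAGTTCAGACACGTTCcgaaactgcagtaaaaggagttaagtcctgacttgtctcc
The genes with an exact decamer did not share a direction in the results that follow. With shSNHG1#1, FDXR, EI24 and FAS rose, PLK2 fell, and AEN, RPS27L and SESN1 did not pass. With shSNHG1#2, FDXR, FAS and SESN1 rose, PLK2 fell, and AEN, RPS27L and EI24 did not pass. Of all tested features, 24.5% rose and 23.5% fell with shSNHG1#1, and 23.3% rose and 22.8% fell with shSNHG1#2.

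Libraries held 21502093 to 21606498 estimated counts. Most markers of the labelled cell type were absent. Of 8 cone and retinoblastoma genes in the table, 6 stayed below 1 FPKM (sequenced fragments scaled to transcript length and library size, a level per length) in every library, with CRX, a photoreceptor factor, at most 0.03 and RCVRN, recoverin, at most 0.09, whereas GNAT2 lay between 15.97 and 19.56. All 6 epithelial markers passed 1 FPKM, with EPCAM between 1.56 and 3.56, CDH1 between 21.74 and 27.54, and KRT8 between 745 and 790. The summed level of 4 mesenchymal markers was 715 to 726 FPKM with shNC, 461 to 493 with shSNHG1#1 and 467 to 484 with shSNHG1#2, nearly all of it VIM, while PDGFRB did not exceed 0.46. A single feature without a gene symbol took 6.57% to 7.09% of the counts with shNC and 11.8% to 13.5% with the other hairpins. Scaling by library totals alone raised the median log2 fold change of all features by 0.046 (shSNHG1#1) and 0.065 (shSNHG1#2) over the scaling used. The part of these differences in the results was not tested. In bulk RNA, fewer cells of a type and less RNA per cell cannot be told apart.

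The p53 genes were split in both directions. With shSNHG1#1, 11 of 31 rose against shNC and 11 fell (edgeR's quasi-likelihood test, adjusted p below 0.05). That is 35.5% in each direction, where 24.5% of all tested features rose and 23.5% fell, and 71.0% called against 48.1%. With shSNHG1#2, 13 rose (41.9%, against 23.3% of features) and 11 fell (35.5%, against 22.8%), so 77.4% were called against 46.2%. The median log2 fold change of the 31 genes was 0.092 with shSNHG1#1 and 0.08 with shSNHG1#2, beside 0.023 and 0.011 over all 18767 features. Values ran from -1.22 to 1.09 and from -1.15 to 0.92. Changes of at least 0.5 in log2 fold change were called for 9 of 31 genes with each hairpin (29.0%, against 19.8% and 17.6% of features). The libraries of hairpin and control did not overlap in scaled counts for 23 genes with shSNHG1#1 (74.2%, against 56.3% of features) and 25 with shSNHG1#2 (80.6%, against 55.8%). These comparisons share their shNC libraries. All 31 genes had at least 248 counts in every library, while features with far fewer counts were among the 18767. By limma on log2(FPKM + 1), 4721 of 18767 features rose and 3581 fell with shSNHG1#1. Among the 14132 with a mean of at least 1 FPKM in some group, 4327 rose and 3475 fell. The share called thus differed with level, and the part of level in the shares given here and below was not tested.

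**Figure D1:**
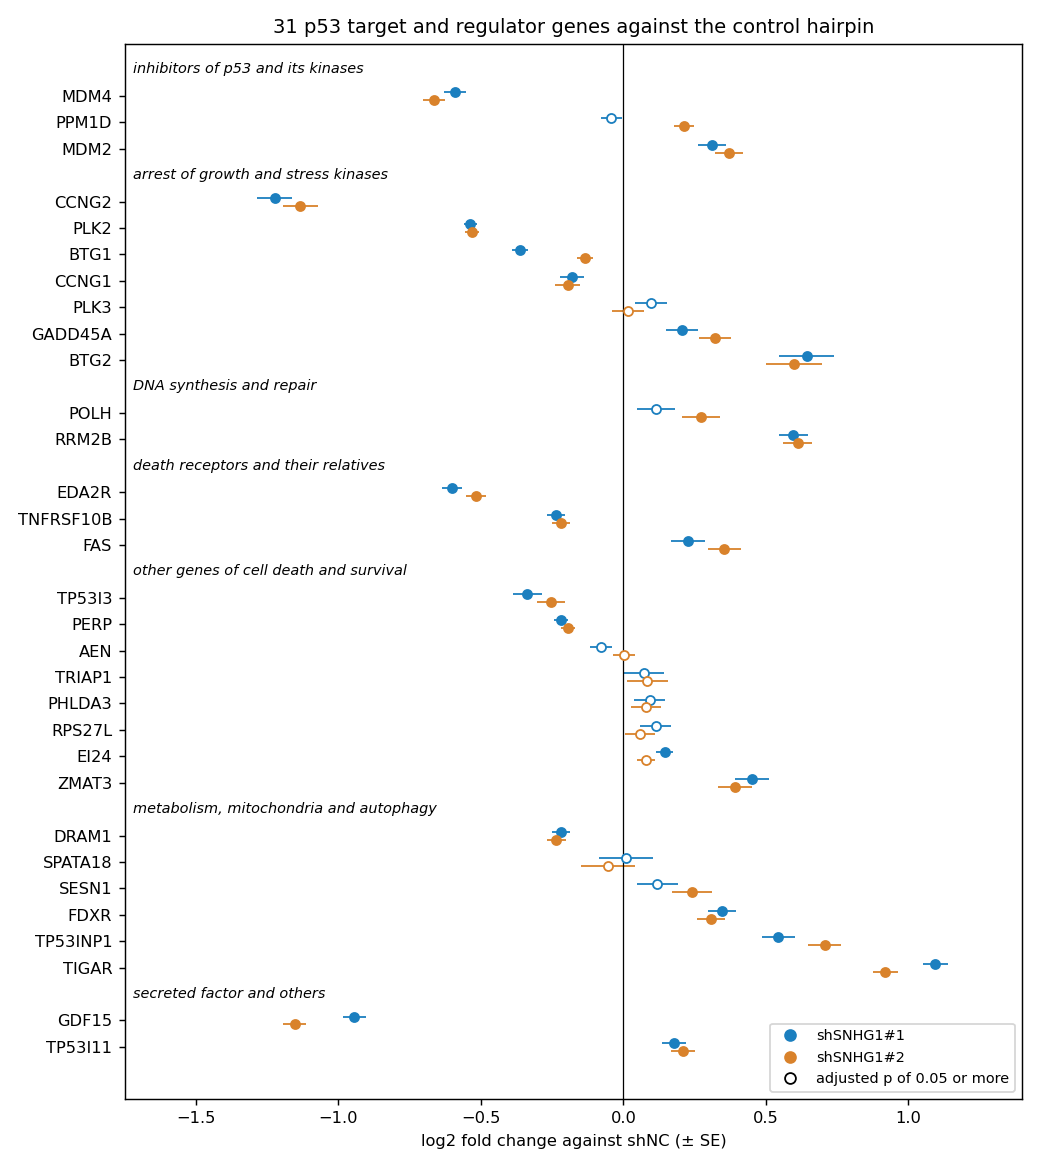
Log2 fold change against shNC with its standard error (x axis) for the 31 genes grouped by role (y axis), for shSNHG1#1 and shSNHG1#2; open points had an adjusted p of 0.05 or more. CCNG2 and GDF15 lie lowest and TIGAR highest with both hairpins, and every role except DNA synthesis and repair holds genes on both sides of 0.

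Among the inhibitors of p53, MDM4 fell and MDM2 rose with both hairpins. MDM4 stood at 6.68, 6.88 and 6.87 FPKM with shNC, at 4.07, 4.25 and 4.34 with shSNHG1#1, and at 4.05, 4.16 and 4.16 with shSNHG1#2. All 6 hairpin libraries were below all 3 controls. By counts MDM4 was 1.51-fold lower with shSNHG1#1 (log2 fold change -0.59, SE 0.038, adjusted p = 3.77e-07) and 1.59-fold lower with shSNHG1#2 (-0.67, SE 0.038, adjusted p = 1.96e-07). MDM2, which had the near-match element shown above, stood at 20.5, 20.92 and 19.59 FPKM with shNC, at 23.81, 25.8 and 22.99 with shSNHG1#1, and at 24.48, 26.61 and 27.02 with shSNHG1#2. Every hairpin library was above every control. It rose 1.24-fold (log2 fold change 0.31, SE 0.048, adjusted p = 3.10e-04) and 1.29-fold (0.37, SE 0.048, adjusted p = 9.90e-05).

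PPM1D encodes a phosphatase that removes activating phosphates from p53 and from its kinases. Its levels were 8.84, 8.67 and 9.67 FPKM with shNC, 8.69, 9.02 and 10.21 with shSNHG1#1, and 10.38, 10.91 and 12.42 with shSNHG1#2. The shSNHG1#1 libraries overlapped the controls, and those of shSNHG1#2 lay above them. PPM1D rose 1.16-fold with shSNHG1#2 (log2 fold change 0.21, adjusted p = 6.22e-04) and had a log2 fold change of -0.04 with shSNHG1#1 (adjusted p = 0.397).

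**Figure D2:**
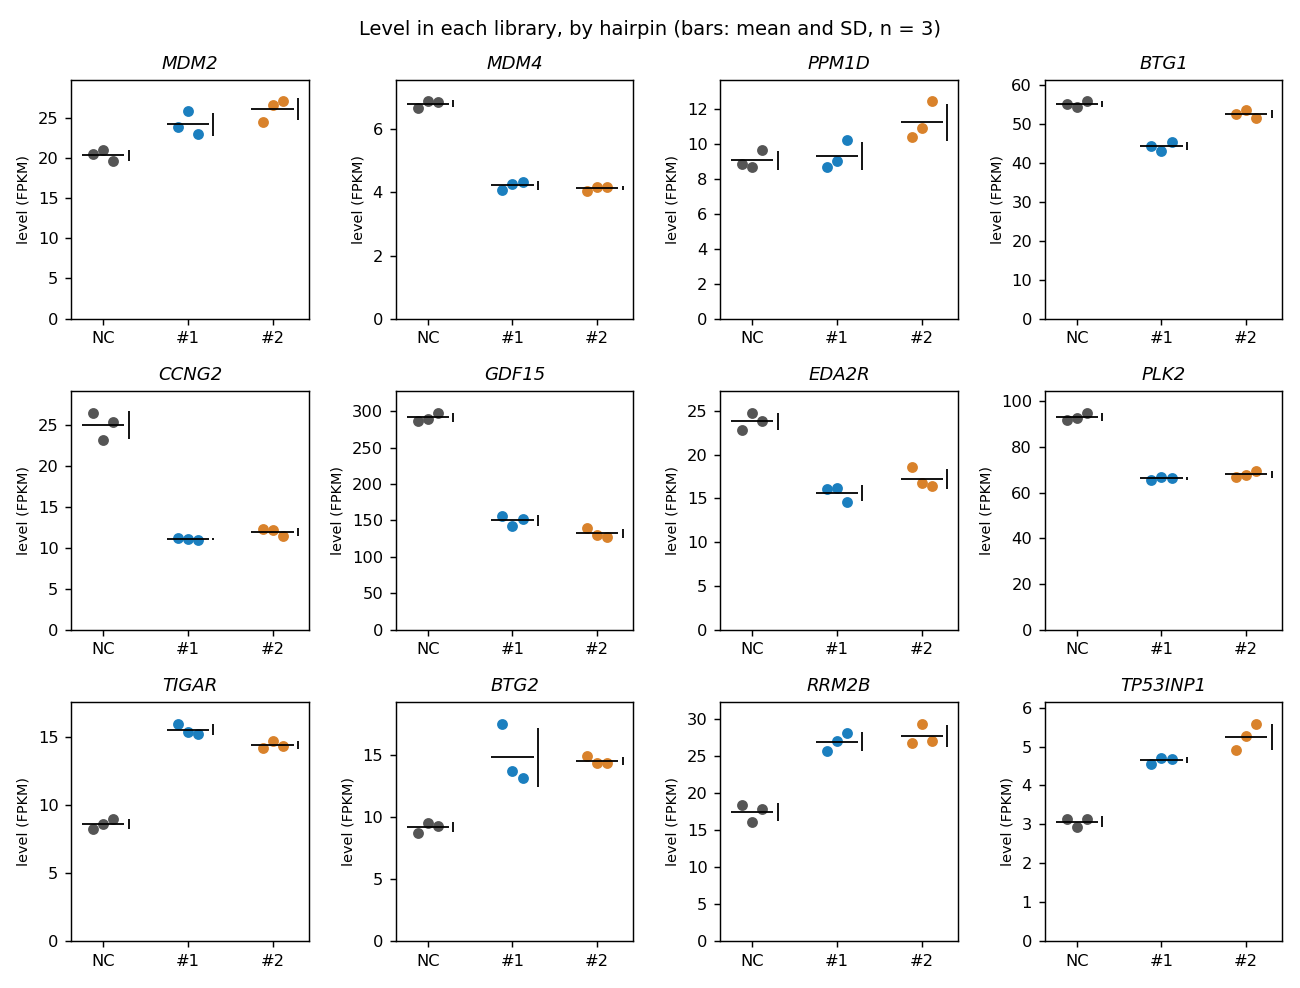
Level in FPKM (y axis) in each library (points) for 12 genes, with shNC, shSNHG1#1 and shSNHG1#2 along the x axis; horizontal bars are means and vertical bars SD, n = 3. In CCNG2, GDF15, EDA2R, PLK2 and MDM4 all hairpin libraries lie below the controls, and in MDM2, TIGAR, BTG2, RRM2B and TP53INP1 all lie above.

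Genes that restrain growth went both ways, 2 rising and 4 falling of 7 with either hairpin (28.6% and 57.1%, where 24.5% of features rose and 23.5% fell with shSNHG1#1 and 23.3% and 22.8% with shSNHG1#2). CCNG2, an unconventional cyclin linked to arrest and also induced by FOXO factors, had the lowest log2 fold change of the 31 genes with shSNHG1#1. Its levels were 26.57, 23.19 and 25.45 FPKM with shNC, 11.25, 11.07 and 10.99 with shSNHG1#1, and 12.28, 12.25 and 11.45 with shSNHG1#2. The groups were far apart, and CCNG2 fell 2.34-fold (log2 fold change -1.22, SE 0.063, adjusted p = 6.42e-08) and 2.195-fold (-1.13, SE 0.062, adjusted p = 1.43e-07). Its relative CCNG1, a p53 target that acts in a loop with MDM2, fell less, from 58.7 ± 2.39 FPKM (SD, n = 3) to 52.5 ± 2.01 and 53.4 ± 2.48, with log2 fold changes of -0.18 and -0.20.

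PLK2, a polo-like kinase of stress responses whose promoter held an exact decamer, stood at 91.68, 92.53 and 94.95 FPKM with shNC. It was at 65.55, 66.88 and 66.34 with shSNHG1#1 and at 66.67, 67.47 and 69.54 with shSNHG1#2. The spread within groups was small beside the distance between them, and PLK2 fell by 0.54 and 0.53 on the log2 scale (SE 0.024 for each, adjusted p = 1.90e-08 and 2.88e-08). PLK3, another polo-like kinase, did not pass with either hairpin and stayed between 4.71 and 5.39 FPKM.

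BTG2, an antiproliferative p53 target, rose. Its levels were 8.74, 9.56 and 9.3 FPKM with shNC, 17.56, 13.74 and 13.21 with shSNHG1#1, and 14.96, 14.36 and 14.4 with shSNHG1#2. Replicate 1 of shSNHG1#1 stood above the rest, and all hairpin libraries lay above the controls. The rise was 1.56-fold (log2 fold change 0.64, SE 0.097, adjusted p = 2.53e-04) and 1.51-fold (0.60, SE 0.097, adjusted p = 4.71e-04). Its relative BTG1 fell instead, from 54.38 to 55.73 FPKM with shNC to 43.09 to 45.24 with shSNHG1#1 and 51.43 to 53.54 with shSNHG1#2. The log2 fold changes of BTG1 were -0.36 (adjusted p = 1.10e-06) and -0.14 (adjusted p = 0.00166), and the latter did not pass when scaled by library totals alone (-0.07, adjusted p = 0.0598) or in the 3 fits on FPKM (-0.068 to -0.069, adjusted p 0.0599 to 0.0739). GADD45A, which binds repair and cell cycle proteins, rose with log2 fold changes of 0.21 and 0.32.

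The balance between related genes was read in 4 pairs, chosen after their values were seen, so the ratios are a description with no test. MDM2 and MDM4 moved in opposite directions, as did BTG2 and BTG1, whereas CCNG1 and CCNG2 both fell and PLK3 did not pass beside the fall of PLK2. The ratio of MDM2 to MDM4 in FPKM was 2.85 to 3.07 in the shNC libraries, 5.3 to 6.07 with shSNHG1#1 and 6.04 to 6.5 with shSNHG1#2. The ratio of BTG2 to BTG1 was 0.158 to 0.176, 0.292 to 0.395 and 0.268 to 0.285. For CCNG1 to CCNG2 it was 2.21 to 2.54, 4.47 to 4.94 and 4.12 to 4.85. The first 3 ratios were all higher with the hairpins, and that of PLK2 to PLK3 was lower, at 19.0 to 19.5 against 12.2 to 13.7 and 13.2 to 13.5. Control and hairpin libraries did not overlap in these ratios, which follows in part from choosing genes already called.

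**Figure D3:**
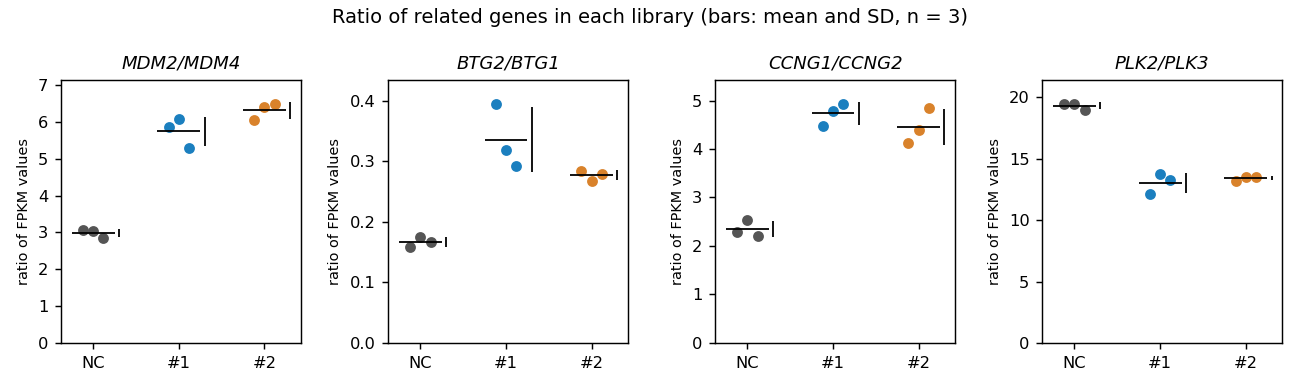
Ratio of FPKM values of related genes (y axis) in each library (points), by hairpin (x axis); horizontal bars are means and vertical bars SD, n = 3. The ratio of MDM2 to MDM4 lies between 2.85 and 3.07 with shNC and between 5.3 and 6.5 with the other hairpins, with no overlap.

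Of the 2 genes of DNA synthesis and repair, 1 rose with shSNHG1#1 and 2 rose with shSNHG1#2, beside 24.5% and 23.3% of all features. RRM2B, the p53-controlled subunit of ribonucleotide reductase that supplies nucleotides for repair, stood at 18.36, 16.05 and 17.82 FPKM with shNC, at 25.72, 27.11 and 28.2 with shSNHG1#1, and at 26.78, 29.42 and 27.02 with shSNHG1#2. No control reached any hairpin library. RRM2B rose 1.51-fold (log2 fold change 0.60, SE 0.052, adjusted p = 3.81e-06) and 1.53-fold (0.61, SE 0.052, adjusted p = 3.70e-06). POLH, a DNA polymerase that copies past damaged bases, rose with shSNHG1#2 (log2 fold change 0.27, adjusted p = 0.00621), and with shSNHG1#1 its log2 fold change was 0.11 (adjusted p = 0.191). In FPKM, POLH passed with shSNHG1#1 as well (log2 difference 0.23, adjusted p = 0.00392, by limma on log2(FPKM + 1)).

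The receptors divided. EDA2R, a receptor of the tumour necrosis factor family, stood at 22.81, 24.79 and 23.78 FPKM with shNC, at 16.1, 16.2 and 14.6 with shSNHG1#1, and at 18.57, 16.7 and 16.42 with shSNHG1#2. All hairpin libraries were below the controls, and EDA2R fell 1.52-fold (log2 fold change -0.60, SE 0.035, adjusted p = 1.59e-07) and 1.43-fold (-0.52, SE 0.035, adjusted p = 6.19e-07). TNFRSF10B, the death receptor for the ligand TRAIL, fell from 69.6 ± 1.56 FPKM to 61.5 ± 2.55 and 62.5 ± 1.11, by 0.24 and 0.22 on the log2 scale. FAS, the receptor of the Fas ligand, stood at 11.5 to 12.71 FPKM with shNC, 12.38 to 14.47 with shSNHG1#1 and 15.24 to 15.89 with shSNHG1#2. In FPKM the first 2 groups overlapped. By counts FAS rose, with log2 fold changes of 0.23 (adjusted p = 0.00901) and 0.35 (adjusted p = 5.44e-04). The rise of FAS with shSNHG1#1 did not pass without replicate 3 of that group (adjusted p = 0.0609).

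Of 8 other genes of cell death and survival, 2 rose and 2 fell with shSNHG1#1, and 1 rose and 2 fell with shSNHG1#2. Those called made up 50% and 37.5% of the 8, near and below the 48.1% and 46.2% of all features. ZMAT3, an RNA-binding protein of the p53 response, rose from 2.34 ± 0.115 FPKM to 3.17 ± 0.0737 and 3.12 ± 0.327 (log2 fold changes 0.45 and 0.39). TP53I3, an oxidoreductase linked to p53-driven death, fell by 0.34 and 0.25, and PERP, a membrane protein of cell junctions and apoptosis, by 0.22 and 0.19. The fall of TP53I3 with shSNHG1#2 did not pass in FPKM (adjusted p up to 0.0702). EI24, a membrane protein of the endoplasmic reticulum, rose with shSNHG1#1 (log2 fold change 0.14, adjusted p = 0.00228) and missed the threshold with shSNHG1#2 (0.08, adjusted p = 0.0529, or 0.00391 when scaled by library totals alone). The exonuclease gene AEN (28.93 to 32.83 FPKM over the 9 libraries), PHLDA3, an inhibitor of AKT (21.91 to 26.66), and TRIAP1, a mitochondrial survival factor (15.65 to 19.0), did not pass with either hairpin. RPS27L (143 to 176 FPKM), a relative of a ribosomal protein that may share reads with copies of its family, did not pass by counts (log2 fold changes 0.11 and 0.06) but did in FPKM by limma on log2(FPKM + 1), with adjusted p = 0.00324 and 0.026. Scaled by library totals alone, its counts passed with shSNHG1#1 (adjusted p = 0.0216).

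In the group of metabolism, mitochondria and autophagy, TIGAR rose most. TIGAR, a phosphatase that lowers glycolytic flux, stood at 8.18, 8.57 and 8.94 FPKM with shNC, at 15.94, 15.36 and 15.17 with shSNHG1#1, and at 14.15, 14.68 and 14.29 with shSNHG1#2. The groups were widely apart. By counts it rose 2.135-fold (log2 fold change 1.09, SE 0.044, adjusted p = 9.91e-09) and 1.89-fold (0.92, SE 0.044, adjusted p = 5.34e-08), which was the largest rise among the 31 genes with each hairpin.

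TP53INP1, which acts in autophagy and p53 activation and is also induced by FOXO factors, stood at 3.15, 2.92 and 3.15 FPKM with shNC, at 4.56, 4.72 and 4.69 with shSNHG1#1, and at 4.92, 5.27 and 5.59 with shSNHG1#2. The groups did not overlap, and it rose 1.46-fold (log2 fold change 0.54, SE 0.058, adjusted p = 1.82e-05) and 1.63-fold (0.71, SE 0.057, adjusted p = 2.79e-06). FDXR, ferredoxin reductase of the mitochondria, rose from 28.1 ± 1.41 FPKM to 36.0 ± 2.45 and 35.7 ± 1.06 (log2 fold changes 0.35 and 0.31).

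SESN1, a sestrin that restrains mTORC1, rose with shSNHG1#2 (log2 fold change 0.24, adjusted p = 0.0172), and its log2 fold change with shSNHG1#1 was 0.12 (adjusted p = 0.202). The difference of the hairpins did not pass for SESN1 (adjusted p = 0.453). Its call was lost without replicate 1 or 3 of shNC or replicate 1 or 2 of shSNHG1#2, with adjusted p of 0.0675, 0.0551, 0.0600 and 0.0621. DRAM1, a lysosomal membrane protein of autophagy, fell by 0.22 and 0.24 on the log2 scale. SPATA18, which acts in mitochondrial quality control, stayed between 2.77 and 3.42 FPKM and did not pass with either hairpin.

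GDF15, a secreted stress cytokine that p53 and the ATF4 and CHOP pathway both induce, had the highest level of the 31 genes in shNC and fell. Its levels were 286.0, 289.78 and 297.91 FPKM with shNC, 156.0, 141.91 and 152.0 with shSNHG1#1, and 139.36, 130.48 and 127.56 with shSNHG1#2. All hairpin libraries were far below the controls. GDF15 fell 1.92-fold (log2 fold change -0.94, SE 0.040, adjusted p = 1.40e-08) and 2.22-fold (-1.15, SE 0.040, adjusted p = 4.40e-09). TP53I11, a p53-induced membrane protein, rose from 26.2 ± 1.25 FPKM to 30.3 ± 0.737 and 31.5 ± 0.710, with log2 fold changes of 0.18 and 0.21.

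The order of levels in shNC spanned 2.34 to 291 FPKM. After GDF15 came RPS27L at 152 ± 8.07, PERP at 124 ± 2.41 and PLK2 at 93.1 ± 1.70 FPKM, and each of these was separate from its neighbours over the 3 libraries. Of the 31 genes, 7 had a mean of at least 50 FPKM, 14 between 10 and 50, and 10 below 10. From AEN to GADD45A, ranks 9 to 17, each gene overlapped the next lower in range except GADD45A, so that order is not resolved. Below these ranks, RRM2B overlapped TRIAP1, BTG2 overlapped PPM1D, PPM1D overlapped TIGAR, and TP53INP1 overlapped SPATA18. MDM2 at 20.3 FPKM ranked 18 and MDM4 at 6.81 ranked 25, with ZMAT3 lowest.

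The counts and FPKM of some genes moved by different amounts. The transcript length implied by count over FPKM was 2048 to 2222 bases for TIGAR with shNC, 2571 to 2663 with shSNHG1#1 and 2428 to 2651 with shSNHG1#2, which is 21.7% and 17.7% longer on average. The FPKM of TIGAR therefore rose 1.81-fold and 1.68-fold, less than its counts. For MDM4 the implied length was 8657 to 8737 bases with shNC, 9103 to 10298 with shSNHG1#1 and 9321 to 9579 with shSNHG1#2, so its FPKM fell more than its counts. For MDM2 it was 7.6% and 5.6% longer, and its range with shSNHG1#2 overlapped the controls (6270 to 6707 against 5968 to 6282 bases). For POLH it was 7.4% and 7.5% shorter, with ranges that overlap the controls. BTG1 and BTG2 had the same implied length in all libraries within 3 bases. These lengths describe the authors' estimates, and no transcript was measured singly.

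**Figure D4:**
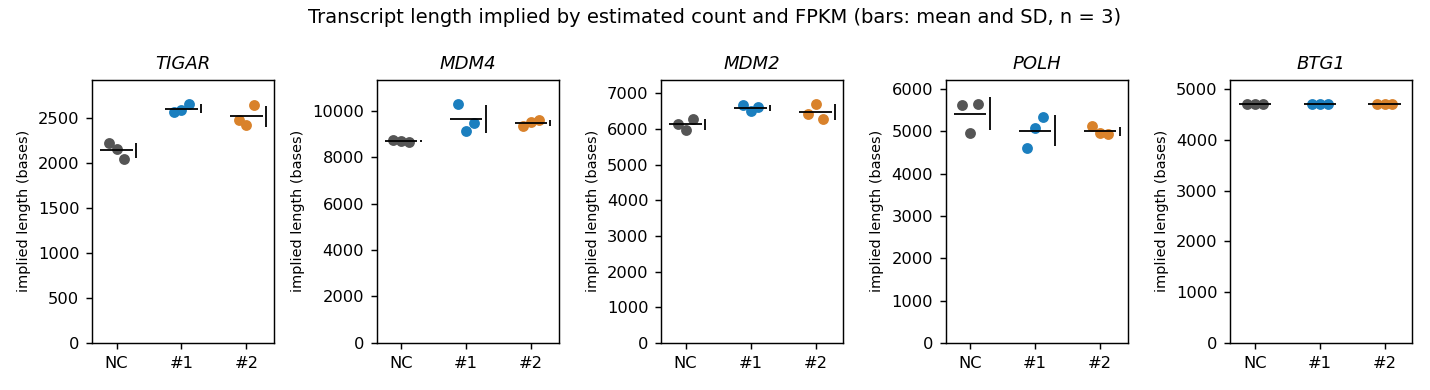
Transcript length in bases implied by estimated count and FPKM (y axis) in each library (points), by hairpin (x axis), for 5 genes; horizontal bars are means and vertical bars SD, n = 3. TIGAR goes from 2048 to 2222 bases with shNC to 2428 to 2663 with the other hairpins, and BTG1 stays at 4712 to 4715.

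Between the hairpins, few of these genes differed. With shSNHG1#2 against shSNHG1#1, 2 of 31 were higher (6.45%, against 2% of features) and 1 was lower (3.23%, against 1.12%), so 9.68% were called beside 3.12%. The libraries did not overlap for 13 genes (41.9%, against 20.8%). BTG1 was higher by 0.23 (SE 0.027, adjusted p = 0.00104), PPM1D was higher by 0.25 (SE 0.036, adjusted p = 0.00326) and GDF15 was lower by 0.21 (SE 0.040, adjusted p = 0.0201), all on the log2 scale. The call of PPM1D was lost in FPKM, with adjusted p of 0.14 to 0.186 by limma. The call of GDF15 was lost in FPKM (adjusted p up to 0.0926), in a fit of only these groups (0.0607), and without replicate 1 or 3 of shSNHG1#1 or replicate 2 or 3 of shSNHG1#2, with adjusted p of 0.0639, 0.0892, 0.0993 and 0.0933. No difference of 0.5 or more in log2 fold change was called by edgeR's quasi-likelihood test or by DESeq2 (0 of 31 genes by each, beside 0.544% of features by edgeR). By edgeR, 8 of 31 genes had an unadjusted p below 0.05 at any size (6 higher, 2 lower). The share of all features at that unadjusted threshold is not given here, so this count is not read as particular to these genes.

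Other genes of the pathway were read from 8 lists that share no gene with the 31, while CHEK1, SESN2 and SESN3 each stand in more than 1 of the lists. Counts in these lists are to be set against all features, of which 24.5% rose and 23.5% fell with shSNHG1#1 and 23.3% rose and 22.8% fell with shSNHG1#2. Of 39 regulators and cofactors of p53, 7 rose and 21 fell with shSNHG1#1 (median log2 fold change -0.14), and 6 rose and 19 fell with shSNHG1#2 (-0.10). The shares that rose, 17.9% and 15.4%, were below those of all features, and the shares that fell, 53.8% and 48.7%, above them. CREBBP, an acetyltransferase that p53 uses as coactivator, fell from 13.9 ± 0.576 FPKM to 6.93 ± 0.388 and 7.89 ± 0.0800. SIRT1, a deacetylase of p53, fell from 24.1 ± 0.313 FPKM to 14.3 ± 0.692 and 14.2 ± 0.497, and TP53BP2, which steers p53 to death genes, fell 1.89-fold and 1.75-fold.

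Of 19 other targets that act in apoptosis, 6 rose and 7 fell with shSNHG1#1, and 5 rose and 7 fell with shSNHG1#2, with medians of -0.05 and -0.07. That is 31.6% and 26.3% rising, where 24.5% and 23.3% of features rose, and 36.8% falling with each, where 23.5% and 22.8% fell. PMAIP1, the BCL2 antagonist NOXA, rose from 18.8 ± 0.639 FPKM to 41.2 ± 0.420 and 35.8 ± 1.09. STEAP3, a metalloreductase that also takes part in iron uptake, fell 2.05-fold and 1.78-fold, and TNFRSF10D, a decoy receptor for TRAIL, fell by 0.56 and 0.59 on the log2 scale. Of 22 targets in arrest, repair and chromatin, 8 rose and 7 fell with shSNHG1#1, and 11 rose and 7 fell with shSNHG1#2. Rises made up 36.4% and 50% (24.5% and 23.3% of features) and falls 31.8% with each (23.5% and 22.8%). CDKN1A, the inhibitor p21 of cyclin-dependent kinases, rose from 101.79, 104.16 and 105.62 FPKM with shNC to 172.55, 157.13 and 159.6 with shSNHG1#1 and 167.14, 163.23 and 163.33 with shSNHG1#2. All hairpin libraries were above the controls (log2 fold changes 0.60 and 0.60, adjusted p = 2.81e-07 and 3.58e-07). The repressor gene PRDM1 fell 2.23-fold and 1.895-fold, the phosphatase gene PTP4A1 fell 1.52-fold and 1.53-fold, and E2F7, a repressor of cell cycle genes, rose 1.84-fold and 2.05-fold.

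Of 35 targets in metabolism, redox control and membranes, 15 rose and 5 fell with shSNHG1#1, and 14 rose and 4 fell with shSNHG1#2 (medians 0.10 and 0.16). Rises made up 42.9% and 40% (24.5% and 23.3% of features) and falls 14.3% and 11.4% (23.5% and 22.8%). DDIT4, an inhibitor of mTORC1 that also responds to hypoxia and ATF4, fell 2.825-fold and 3.02-fold, and LRP1, an endocytic receptor, 1.62-fold and 1.36-fold. TM7SF3, a membrane protein, rose 1.36-fold and 1.34-fold, and RETSAT, a retinol saturase, 1.33-fold and 1.43-fold. Of 21 secreted and immune targets, 6 rose and 9 fell with shSNHG1#1, and 5 rose and 9 fell with shSNHG1#2 (medians -0.03 and -0.06). The shares that rose, 28.6% and 23.8%, were near the 24.5% and 23.3% of all features, and 42.9% fell with each, beside 23.5% and 22.8%. IGFBP3, which binds insulin-like growth factors, fell from 2134 ± 18.7 FPKM to 558 ± 9.58 and 909 ± 4.23. The cytokine gene LIF fell 2.04-fold with each hairpin, while PGF, a growth factor of vessels, rose 2.08-fold and 2.55-fold from a low level of 0.870 ± 0.0964 FPKM.

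Genes that p53 lowers indirectly, through p21 and the DREAM repressor complex, rose. All 15 of the list rose with shSNHG1#1 and 14 with shSNHG1#2, CHEK1 being the gene that did not pass (log2 fold change 0.12, adjusted p = 0.142, named after its value was seen), with medians of 0.66 and 0.53. Of all features, 24.5% and 23.3% rose. CDK1, the kinase of mitotic entry, went from 20.3 ± 0.902 FPKM to 34.4 ± 0.669 and 32.1 ± 0.770, and KIF23, a kinesin of cytokinesis, rose 1.64-fold and 1.53-fold. CDC20, which triggers chromosome separation, rose 1.71-fold and 1.58-fold. PLK1, a mitotic kinase, rose 1.59-fold and 1.48-fold. BIRC5, the survival and division factor survivin, had log2 fold changes of 0.73 and 0.44. MCM5, a replication helicase subunit, rose 1.71-fold and 1.595-fold. The part of p53, of the DREAM complex or of the share of dividing cells in these rises was not tested.

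The lists of other pathways that drive some of the 31 genes were mixed. Of 8 genes of the ATF4 and CHOP stress response, 3 rose and 5 fell with either hairpin, with medians of -0.81 and -0.80. All 8 were called with each hairpin, where 48.1% and 46.2% of all features were. DDIT3, which encodes CHOP, fell by 1.61 and 1.54 on the log2 scale, PPP1R15A by 1.60 and 1.55, and TRIB3 by 1.23 and 1.13. Of 10 genes linked to FOXO factors, 4 rose and 5 fell with either hairpin, with medians of -0.13 and -0.19, so 90% were called with each, beside the same 48.1% and 46.2%. TXNIP, which also responds to glucose, rose 5.88-fold and 7.97-fold, while the transcription regulators CITED2 and KLF6 fell 3.01-fold and 2.41-fold with shSNHG1#1 and 2.68-fold and 2.26-fold with shSNHG1#2. The part of these pathways in the levels of GDF15, CCNG2 or TP53INP1 was not tested.

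**Figure D5:**
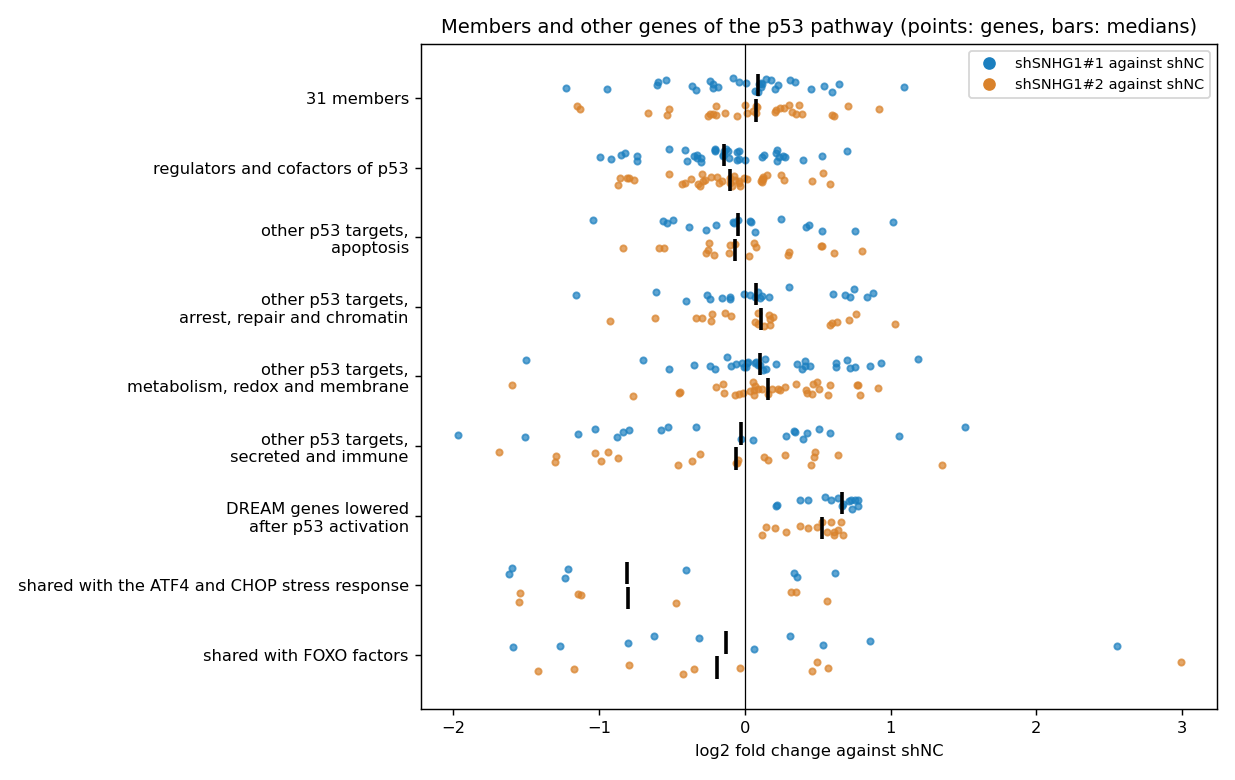
Log2 fold change against shNC (x axis) of single genes (points) in the 31 members and 8 lists of other genes (y axis), for shSNHG1#1 and shSNHG1#2; black bars are medians. The members scatter around medians of 0.092 and 0.08, and the genes lowered through DREAM after p53 activation all lie above 0.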

How the data were processed

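The authors deposited expected counts per gene (estimated counts, not whole numbers) and FPKM values for 9 libraries. The file headers do not name the unit of the latter, which was read from the values. Per the submitters' processing notes, which give no roles, the software was DESeq2 1.4.5, RSEM 1.2.12, HISAT2 2.0.4 and Bowtie2 2.2.5. For genome build, annotation and strand, the entry is "not given in the sources used here". Genes with overlapping partners or near-identical copies are therefore uncertain.

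Estimated counts were rounded and tested in R 4.3.3 with edgeR 4.0.16: filterByExpr on the 3 groups, TMM factors, 1 quasi-likelihood model of the 9 libraries by group, and Benjamini-Hochberg adjustment over 18767 features at 0.05. FPKM gives levels, as mean ± SD over 3 libraries. Standard errors were derived from the F statistic. Library depth was 21502093 to 21606498 counts, and the median biological coefficient of variation was 7.28%. Replicates differed by more than sampling noise (chi-square per degree of freedom 3.06 to 6.50).

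The 31 genes and all lists were chosen with earlier results of these data known. Values in every library are given for genes called against shNC with an absolute log2 fold change of 0.5 or more whose average log2 CPM reached 2, and for MDM2, MDM4 and PPM1D in any case. Some results that this rule would name are not reported here. From each list, up to 3 genes with the smallest p in each comparison with shNC and the called gene with the largest change are named. CDKN1A was given in every library, and the pairs of related genes and the implied lengths were chosen, after values were seen. Alternatives used DESeq2 1.42.0, limma 3.58.1, other scalings and filters, the replicate number as a block, and each library left out in turn.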

Additional observations from a re-analysis of the deposited data

Results flagged for a closer look

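The effects of the hairpins differed from each other, by the direct test of shSNHG1#2 against shSNHG1#1, for 3 of the 31 genes (9.68%, beside 3.12% of all features). BTG1 differed by a log2 value of 0.23 (adjusted p = 0.00104 by edgeR): it fell with both hairpins, by 0.36 with shSNHG1#1 and 0.14 with shSNHG1#2, and its 3 libraries of shSNHG1#2 lay between those of the other groups. PPM1D differed by 0.25 (adjusted p = 0.00326), with log2 fold changes against shNC of -0.04 with shSNHG1#1 and 0.21 with shSNHG1#2. In FPKM this difference did not pass (adjusted p up to 0.186). GDF15 differed by -0.21 (adjusted p = 0.0201), having fallen with both hairpins, and its libraries did not overlap between them. This call was lost in 8 of 15 alternatives (adjusted p up to 0.0993). The causes were not tested.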

How the results depend on the processing

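Of 1395 such values of the 31 genes, 42 had another sign than the main value, and 0 of these passed the threshold in either fit. Counts against shNC stayed within 1.5 times under all alternatives run: leaving out 1 library gave 10 to 12 higher and 11 to 11 lower genes with shSNHG1#1, and 12 to 13 higher and 11 to 11 lower with shSNHG1#2. Between the hairpins, the limma fits each left 1 gene higher and 0 lower. They used log2(FPKM + 1), log2(FPKM + 0.1), and log2(FPKM + 1) with a minimum of 1 FPKM. A fit of only the groups compared left 0 lower. At an unadjusted p below 0.05, the limma fits and that fit each had 2 lower. DESeq2 had 1 lower at the adjusted threshold and 2 lower at the unadjusted one. Leaving out 1 library gave 2 to 2 higher and 0 to 1 lower. The cause was not tested. The promoter count moved from 7 genes to 0 with a full element, 1 with a full element of up to 1 mismatch in each decamer, and 15 with a decamer of up to 1 mismatch, which 50.1% of all genes have. By library totals alone, 60.9% of all calls with shSNHG1#2 were higher against 50.5%, and 74.8% against 64.0% between the hairpins. Over all features, calls between the hairpins numbered 375 higher and 211 lower, and 271 to 602 higher and 99 to 357 lower under the alternatives that kept all libraries (296 and 137 with the replicate block). With features that have a gene symbol only, an alternative chosen after seeing the data, the counts of the 31 genes were the main ones. Same-numbered libraries did not deviate together over many features (correlations -0.145 to 0.043, against -0.112 to 0.16 for others). Such correlations cannot exclude a pairing by number, and the labels state none. With the replicate number as a block, 11 genes rose and 11 fell with shSNHG1#1, 13 and 11 with shSNHG1#2, and 2 and 1 differed between hairpins, as without it. SPATA18 had the lowest counts of the 31 genes, 248 to 301 per library, and a standard error of 0.094 in log2 fold change. Small differences in it could therefore be missed. BTG2 had a standard error of 0.097 against shNC at 512 to 1029 counts per library. The part of depth in these errors was not tested.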
